A study of Caenorhabditis elegans with 2 samples.

Results

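The genes described here encode the proteins of the cytoplasmic ribosome of Caenorhabditis elegans. They were chosen by name, as protein-coding genes called rpl-, rps- or rla- in the annotation, and there are 81 of them among 19973 protein-coding genes. Of these, 50 belong to the large subunit (rpl- and rla-) and 31 to the small subunit (rps-). The study mapped a tagged MADF-5 protein by chromatin immunoprecipitation and sequencing, with an antibody against GFP, in 2 biological replicates of 1 group. No condition was compared with another.

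The worms were whole L4 larvae of strain OP436, collected at 50 hours after synchronisation by starvation of bleached embryos at the L1 stage. The strain carries the integrated array wgIs436, in which madf-5 (C01G12.1) on fosmid 92D06 bears a TY1 EGFP 3xFLAG tag, together with unc-119(+) as a rescue of unc-119(tm4063). Both replicates share this genotype, so every value comes from 1 transgenic line in which the tagged copy is an addition to the genome. Whole animals were used, so all tissues contribute to each peak.

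Ribosomal proteins assemble with ribosomal RNA in the nucleolus into the large subunit, which forms peptide bonds, and the small subunit, which reads the messenger RNA. Most of their genes are expressed widely, and a growing larva needs most of the proteins in near-equal amounts. Many of their messenger RNAs in this species receive a spliced leader by trans-splicing, so an annotated 5′ end can lie downstream of the site where transcription begins. Several ribosomal protein genes carry snoRNA genes, which guide modification of ribosomal RNA, in their introns.

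A gene was counted as bound when an annotated transcript start lay within 500 bp of a peak summit in the conservative list of the authors, which holds 813 peaks and is called the set below. Shares are given over genes for which one of the 116935 ranked summits, from which the set was drawn, lay that close to a start. Signal is the value the authors' peak caller gave each peak, on a scale that is not stated, and its median in the set was 75.6. The score is an irreproducible discovery rate score with a ceiling of 1000, and peaks of the set reached down to 830. Replicate 1 had 411 peaks in its own thresholded list and replicate 2 had 254. Read depth is unknown, and intervals cover counting error only.

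In the set, 20 of the 76 ribosomal protein genes with a ranked summit nearby were bound (26.3%, Wilson 95% interval 17.7 to 37.2). Among all 15722 protein-coding genes of the background, 287 were bound (1.83%). Ribosomal protein genes thus made up 6.97% of the bound protein-coding genes and 0.483% of the background. The other 5 of the 81 genes had no ranked summit within 500 bp, namely rla-2, rpl-37, rps-9, rps-17 and rps-18. No peak was counted for more than 1 of these bound genes, 20 peaks in all, though 10 of the peaks had another protein-coding start within 500 bp.

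The sequences below were picked after they were seen, and they are listed by signal. Each was picked because it holds a word of 8 letters found at 3 or more bound ribosomal protein genes with an upstream summit. These are not the peaks of highest signal as such. For example, rps-26 shares a longer stretch with rps-23 but holds no word found at 3 or more of these genes. The peak of rps-19 holds such a word and is not shown. Each is read 5′ to 3′ on the strand of its gene from the WBcel235 assembly of RefSeq, with 50 bp to each side of the summit, or fewer where an annotated exon began. Capitals mark words of 8 letters found, on either strand, in the windows of 3 or more of the 13 bound genes whose summit lay upstream of the start.
rpl-3 (chrIII:3867495-3867595, plus strand): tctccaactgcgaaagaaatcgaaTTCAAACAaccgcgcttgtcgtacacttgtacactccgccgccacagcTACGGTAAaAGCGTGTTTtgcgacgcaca
rpl-15 (chrIV:654879-654979, minus strand): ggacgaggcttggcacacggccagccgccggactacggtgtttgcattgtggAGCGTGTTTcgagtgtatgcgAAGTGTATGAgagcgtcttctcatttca
rpl-35 (chrIII:7854636-7854736, plus strand): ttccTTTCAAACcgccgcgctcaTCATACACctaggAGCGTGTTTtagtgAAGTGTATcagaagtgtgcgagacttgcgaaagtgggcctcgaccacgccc
rpl-20 (chrIV:4750016-4750116, minus strand): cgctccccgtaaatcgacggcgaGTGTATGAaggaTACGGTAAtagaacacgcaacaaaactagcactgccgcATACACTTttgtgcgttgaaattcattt
rps-23 (chrIV:12391287-12391387, minus strand): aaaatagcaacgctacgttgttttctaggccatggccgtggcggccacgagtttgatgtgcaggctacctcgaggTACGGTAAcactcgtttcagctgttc
rpl-7A (chrIV:4390620-4390720, minus strand): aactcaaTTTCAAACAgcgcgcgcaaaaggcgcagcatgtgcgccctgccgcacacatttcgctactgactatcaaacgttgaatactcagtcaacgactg
rps-24 (chrIV:385510-385610, plus strand): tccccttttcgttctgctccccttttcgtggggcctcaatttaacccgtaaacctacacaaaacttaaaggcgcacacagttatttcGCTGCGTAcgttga
rpl-12 (chrIV:13240652-13240731, minus strand): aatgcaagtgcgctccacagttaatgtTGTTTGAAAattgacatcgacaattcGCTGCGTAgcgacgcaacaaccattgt

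In all, 8 words were found in 3 or more of the 13 upstream windows, and none of them was found in the 7 windows of bound genes with a downstream summit. They were picked for being shared, so their counts among these genes are a description, and frequencies are given over the 793 windows of the set outside the 20 ribosomal protein peaks. The word AGCGTGTT stood in rpl-3, rpl-15 and rpl-35, on the strand of the gene each time, and in rpl-15 and rpl-35 it belonged to a common stretch of 11 letters, GGAGCGTGTTT. Elsewhere in the set it occurred in 8 windows (1.01%), and in 0.150% of 115952 ranked background windows. The overlapping word GCGTGTTT occurred in 4 windows elsewhere in the set (0.504%) and 0.241% of the background.

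The words AAGTGTAT and GTGTATGA stood in rpl-15, rpl-20 and rpl-35, in rpl-15 as a single overlapping run and in rpl-35 and rpl-20 in opposite orientations within 1 window. Each occurred in 2 windows elsewhere in the set (0.252%), against 0.404% and 0.179% of the background. TACGGTAA stood in rpl-3, rpl-20 and rps-23 in the same orientation, and in 1 window elsewhere in the set (0.126%, against 0.355% of the background). GCTGCGTA stood in rpl-12, rps-19 and rps-24, and in rpl-12 and rps-24 it lay in a common stretch of 11 letters, TTCGCTGCGTA. It occurred in 4 windows elsewhere in the set (0.504%, against 0.112% of the background). The remaining words, GTTTGAAA and TGTTTGAA, stood in 8 and 5 windows elsewhere in the set (1.01% and 0.631%), against 1.44% and 1.11% of the background. Outside the ribosomal protein peaks, AAGTGTAT, TACGGTAA, GTTTGAAA and TGTTTGAA were thus less frequent in the set than in the background, on counts of 1 to 8 windows and with no test.

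The longest stretch shared by 2 of the 13 upstream windows had 14 letters, between rps-23 and rps-26 in opposite orientations. A stretch of 12 letters, ccgtaaatcgac, was common to rpl-20 and rps-12 in the same orientation. None of the 20 bound windows held the core of the tRNA B box, GTTCGA, an internal promoter element of RNA polymerase III genes, on either strand, whereas 21.4% of the windows of the set and 4.03% of the background held it. At the strongest ranked summit of the 56 unbound ribosomal protein genes, 4 windows held it (7.14%). The longer form GTTCGANNC, which contains the core, was in 17.7% of the set, and the A box core TGGCNNAGT in 65 of the 813 windows. Both were in 0 of the 20 bound windows, and in 1 (1.79%) and 2 (3.57%) of the 56 unbound ones. These zeros say only that the letters are not in these windows.

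Of the other preset letters, the TATA box TATAAA stood in 1 of 20 windows (rpl-32), the GC box GGGCGG in 1 (rps-19) and the snoRNA C box TGATGA in 1 (rpl-35). In the set they stood in 6.52%, 5.54% and 5.17% of windows, and in the ranked background in 8.05%, 2.48% and 8.56%. A run of 8 T letters was in 0 of the 20 windows, against 3.2% of the set and 8.29% of the background. The E box CACGTG was in 0, against 2.95% and 2.18%. The repeat GAGAGA was in 0 (10.6% of the set, 6.28% of the background), as was CTGCGTC (2.34%, 1.20%). The GATA site TGATAA was in 0 (5.29% of the set, 8.08% of the background). So was TGACTCA, an AP-1-like site (0.615%, 0.887%). Zeros in 20 windows say little at shares this low. In the 56 windows of unbound genes these 9 stood in 0 windows (TGACTCA) to 7 (TGATGA, 12.5%). The median GC content was 50.5% in the 13 upstream windows, 47.5% in the 7 downstream windows, 43.6% at the strongest ranked summit of the 56 unbound genes, 49.5% in the set and 39.6% in the ranked background.

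Split by the side of the start on which the summit lay, the peaks of the set differed in signal and in support from the replicates. Of the 20 summits, 13 lay upstream of the nearest annotated start of the gene and 7 downstream. The 13 upstream summits had signals of 60.4 to 261 with a median of 91.3, and none lay inside an annotated protein-coding gene. The 7 downstream summits had signals of 32.2 to 81.6 with a median of 50.9, and all 7 lay inside the body of a gene. The 2 ranges overlap between 60.4 and 81.6.

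The same split in the other 267 bound protein-coding genes gave median signals of 73.9 for 171 genes with an upstream summit and 69.1 for 96 with a downstream one. The share of upstream summits was 65.0% at ribosomal protein genes and 64.0% at these other genes. The median signed distance from start to summit, negative for upstream, was -76.5 bp at ribosomal protein genes (interquartile range -298.5 to 189) and -144 bp at the others (-314 to 105). The value at ribosomal protein genes was -216 bp with the other whole-series list of the authors and -295 bp over peaks above the median signal, and its sign turned, to 48.5 bp, with a window of 1000 bp. Neither difference was tested.

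**Figure D1:**
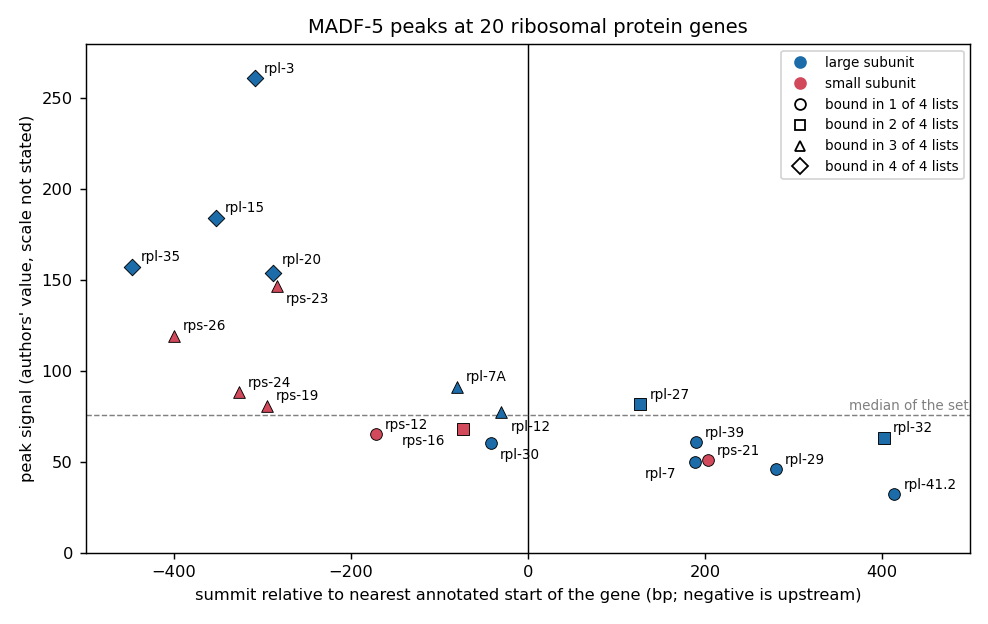
Peak signal (authors' value) against the signed distance in bp from the nearest annotated start to the summit for the 20 bound ribosomal protein genes, with 1 point per gene, colour for the subunit and shape for the number of the 4 thresholded lists in which the gene was bound. The 6 highest signals, 119 to 261, lie 284 to 448 bp upstream, and all 7 downstream points lie at 81.6 or below; the dashed line is the median of the set, 75.6.

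The 6 strongest peaks all lay between 284 and 448 bp upstream of a start. The strongest belonged to rpl-3 (WBGene00004414), which encodes a large-subunit protein near the peptidyl transferase centre, with a signal of 261, rank 2 of the 813 peaks, 309 bp upstream of the start. Its signal in the ranked list of replicate 1 was 152 and in that of replicate 2 it was 103, both above the 99.9th percentile of their lists (99.95 and 99.91). It was the one peak of the 20 narrower than 224 bp, at 123 bp (III 3867513-3867635), and no other gene start lay within 500 bp of its summit.

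The large-subunit gene rpl-15 (WBGene00004427) had a signal of 184, 353 bp upstream of its start (IV 654817-655040), with 129 in replicate 1 and 56.8 in replicate 2. The gene rpl-35 (WBGene00004449), whose product lies at the exit of the peptide tunnel, had 157 at 448 bp upstream (III 7854574-7854797), with 96.8 and 54.5. The gene rpl-20 (WBGene00004432) had 154 at 288 bp upstream (IV 4749954-4750177), with 85.6 and 69.2. These 4 genes, all of the large subunit, were the ribosomal protein genes that passed the threshold in each replicate separately.

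The small-subunit genes with the highest signals were rps-23 and rps-26. For rps-23 (WBGene00004492), whose product sits at the decoding centre, the signal was 147 at 284 bp upstream (IV 12391225-12391448), with 100.8 in replicate 1 and 48.3 in replicate 2. For rps-26 (WBGene00004495), whose product lines the exit of the messenger RNA channel, it was 119 at 400 bp upstream (I 14759418-14759641), with 81.5 and 37.9. Both were bound in the own list of replicate 1 and not in that of replicate 2, where their peaks had scores of 627 and 800, below its lowest thresholded score of 830.

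The upstream peaks of intermediate signal were those of rpl-7A, rps-24, rps-19 and rpl-12. The large-subunit gene rpl-7A had a signal of 91.3 at 80 bp upstream, rps-24 had 88.5 at 327 bp and rps-19, mutated in Diamond-Blackfan anaemia in humans, had 80.9 at 295 bp. The gene rpl-12, a stalk-base protein gene known in this species for unproductive splicing that feeds back on its own expression, had 77.2 at 30 bp. All 4 had a score of 1000 in replicate 1, with signals of 68.4, 65.4, 51.6 and 50.7. In replicate 2 their signals were 24.9, 26.1, 31.3 and 26.9, and their scores 31, 27, 34 and 158.

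The 3 weakest upstream peaks belonged to rps-16 (signal 68.0, 73 bp upstream), rps-12 (65.3, 172 bp) and rpl-30 (60.4, 42 bp). None of them was in the own list of either replicate. The score of rpl-30 was 831, the closest to the lowest score of the set, so it stands just inside the threshold.

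All 7 downstream summits lay in transcribed sequence. Those of rpl-27 (signal 81.6, 127 bp downstream), rps-21 (50.9, 203 bp) and rpl-7 (49.9, 189 bp) were in coding exons of the gene itself, and that of rpl-39 (60.7, 190 bp), a short protein of the peptide tunnel, was in its intron. The other 3 lay past the 3′ end of the ribosomal protein gene in coding exons of a neighbour. These were rpl-32 (63.4, 402 bp, in chmp-7, an ESCRT component gene), rpl-29 (46.0, 280 bp, in thoc-7, a THO complex gene) and rpl-41.2 (32.2, 414 bp, in zig-7).

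Of the genes bound in the set, none of the 7 with a downstream summit was bound in the own list of either replicate. Of the 13 with an upstream summit, 10 were bound in replicate 1 and 4 in replicate 2. Outside the set, rpl-43 and rpl-31 were bound in the own list of replicate 1 with summits 371 and 396 bp downstream. There rps-20 was bound with a summit 221 bp upstream. How often other bound protein-coding genes were in these lists, by side of the start, was not computed. In replicate 1 the ranked peak within 100 bp of the summit had a signal of 27.4 to 152 (median 68.4) at the 13 upstream sites and of 26.5 to 39.0 (median 31.1) at the 7 downstream sites. In replicate 2 the values were 24.9 to 103 (median 36.5) at the 13 upstream sites and 26.9 to 43.3 (median 29.5) at 5 downstream sites. The peaks of rpl-29 and rpl-41.2 had no ranked peak of replicate 2 within 100 bp. The gene rpl-41.2 has a paralog, rpl-41.1, beside it, and how reads with several matches were placed is not known here.

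**Figure D2:**
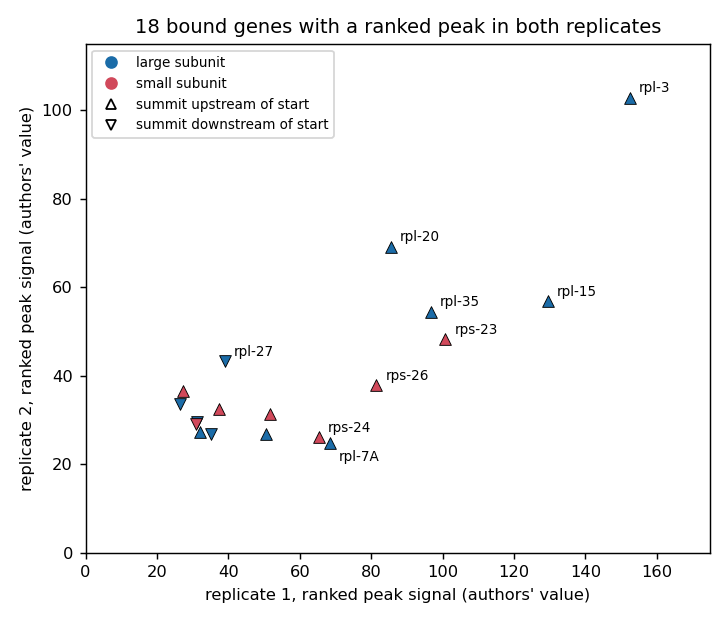
Signal of the ranked peak within 100 bp of the summit in replicate 1 (horizontal axis) and replicate 2 (vertical axis), both in the authors' units, for the 18 bound ribosomal protein genes with such a peak in both replicates; triangles point up for upstream and down for downstream summits. The point of rpl-3 (152 and 103) stands highest on both axes, and rpl-7A and rps-24 are high in replicate 1 (68.4 and 65.4) and low in replicate 2 (24.9 and 26.1).

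Few genes passed the threshold in each replicate. Where a ranked peak lay within 100 bp of the summit, its median shift was 4 bp in replicate 1 (20 genes) and 11.5 bp in replicate 2 (18 genes), values that the limit of 100 bp caps. The longest shifts were at downstream summits, with 88 bp for rps-21 and 82 bp for rpl-39 in replicate 2, and 71 bp for rpl-7 and 66 bp for rpl-27 in replicate 1. In the own list of replicate 1, 13 of the 76 genes were bound (17.1%, 10.3 to 27.1, against 0.992% of protein-coding genes), and in that of replicate 2 there were 4 (5.26%, 2.07 to 12.8, against 0.388%). The other whole-series list gave 17 (22.4%, 14.5 to 32.9, against 1.84%). Over these lists and the set, 24 of the 81 genes were bound in at least 1. Pooling lists raises such a count for any genes, and the share of all protein-coding genes was not computed for it. Of the 24 genes, 4 were bound in all 4 lists, 6 in the set, the other list and replicate 1, 3 in the set and the other list, and 7 in the set alone. The 7 were rpl-7, rpl-29, rpl-30, rpl-39, rpl-41.2, rps-12 and rps-21.

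The remaining 4 genes were bound elsewhere but not in the set. In the other whole-series list rps-20 had a signal of 58.2 at 216 bp upstream, rpl-43 had 57.3 at 371 bp downstream, rpl-31 had 53.8 at 387 bp downstream, and rla-1, which encodes an acidic stalk protein, had 47.9 at 45 bp downstream. Of these, rps-20, rpl-43 and rpl-31 were also in the own list of replicate 1, with signals of 51.9, 52.0 and 38.7, each with a score of 1000.

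Most ribosomal protein genes outside the set had ranked peaks far below the threshold. The 56 unbound genes with a ranked summit nearby had a median best score of 203 against the threshold of 830, and 38 of them were below 300. Best scores of other unbound protein-coding genes were not computed, so these values have no background. Just outside the threshold were rla-1 (score 784, signal 47.9), rps-14 (779, 61.0) and rpl-31 (770, 53.8). The next were rpl-36 (583, 43.4) and rps-28 (478, 49.9). The genes rps-14 and rpl-36 are divergent neighbours, 663 bp apart. The nearest summit of the set just outside the 500 bp window was that of rpl-36, 533 bp downstream, with a signal of 77.8, and the farthest inside it was that of rpl-35 at 448 bp.

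**Figure D3:**
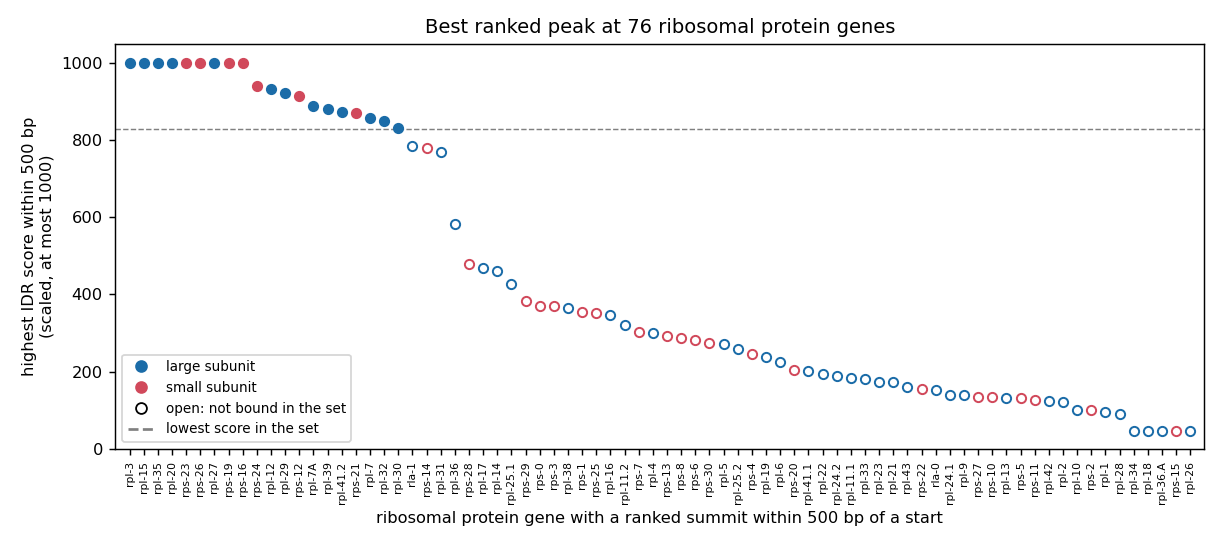
Highest irreproducible discovery rate score (scaled, at most 1000) of any ranked peak within 500 bp of a start, for the 76 ribosomal protein genes that have one, sorted from high to low. Filled points are the 20 genes bound in the set and open points the 56 others; the points drop from 770 at rpl-31 to 583 at rpl-36, below the dashed line at 830, the lowest score of the set.

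Even so, the ranked lists of each replicate placed ribosomal protein genes high. In replicate 1, 74 of the 81 genes had a ranked summit within 500 bp, and the strongest such peak stood at a median signal percentile of 93.6 within the list (interquartile range 72.9 to 98.6), against 61.9 (36.9 to 82.9) for 11394 other protein-coding genes. In replicate 2, 66 genes had one, with a median of 89.97 (61.1 to 96.7) against 61.2 (36.0 to 82.4) for 12021 others. Peaks above the 90th percentile were found at 43 genes (58.1%) in replicate 1 and at 32 (48.5%) in replicate 2, against 15.7% and 15.1% of the others.

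The 61 genes outside the set also had peaks at high percentiles. In replicate 1 the 54 of them with a ranked summit had a median percentile of 80.8, and 23 were above 90 (42.6%). In replicate 2 there were 46, with a median of 73.9, and 13 were above 90 (28.3%). The interquartile ranges of these genes, 64.6 to 95.9 and 39.0 to 91.5, overlap those of other protein-coding genes.

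The large and small subunits had shares of bound genes that differed by less than counting error. Of the large-subunit genes 13 of 48 were bound (27.1%, 16.6 to 41.0) and of the small-subunit genes 7 of 28 (25%, 12.7 to 43.4), a difference of small minus large of -2.08 percentage points (Newcombe 95% interval -20.7 to 19.1). This interval does not show that the subunits are bound alike. Large-subunit genes had 7 upstream and 6 downstream summits, and small-subunit genes 6 and 1. In replicate 2, 4 large-subunit genes were bound and 0 of 28 small-subunit genes (Wilson upper limit 12.1%).

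Other genes of the translation machinery, in lists chosen by name, had few members bound. Of 59 mitochondrial ribosomal protein genes with a ranked summit, which encode the separate ribosome of the mitochondrion, 0 were bound (Wilson upper limit 6.11%). There were 0 of 28 tRNA synthetase genes (upper limit 12.1%), 0 of 8 genes for subunits of RNA polymerases I and III (32.4%), 1 of 36 translation factor genes (2.78%, 0.492 to 14.2) and 1 of 17 genes for ribosome and snoRNP biogenesis (5.88%, 1.05 to 27.0). Over all 5 lists this makes 2 of 148 genes (1.35%, 0.371 to 4.79), near the background of 1.83%.

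The bound members were iff-2, an eIF5A gene (signal 66.5, 96 bp upstream, II 8561351-8561574), and rrp-8, a ribosomal RNA processing gene (64.5, 56 bp downstream, IV 396489-396712). Neither was in the own list of a replicate. The ubiquitin fusion genes ubl-1 and ubq-2, which also encode ribosomal proteins but fall outside the name rule, were not bound.

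**Figure D4:**
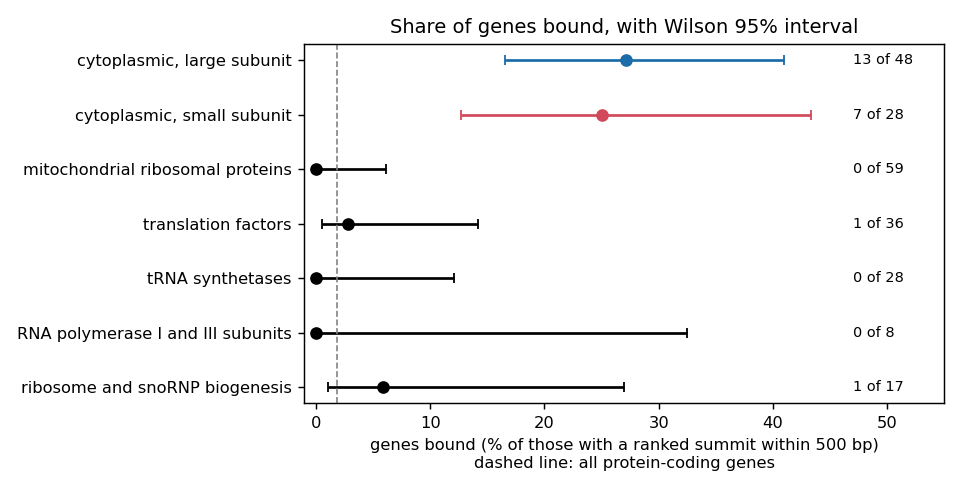
Share of genes bound in the set, in percent of those with a ranked summit within 500 bp of a start, with Wilson 95% intervals (bars) and the counts at the right, for the cytoplasmic large and small subunits and 5 lists of other translation genes. Both cytoplasmic subunits (27.1% and 25%) have intervals that start at 12.7% or higher, and those of the 5 other lists span the dashed line, 1.83% of all protein-coding genes.

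Genes with and without a nested snoRNA gene differed in their share bound by less than counting error. A snoRNA gene lay inside 13 of the 76 genes, and 5 of these were bound (38.5%, 17.7 to 64.5), namely rpl-7, rpl-15, rpl-7A, rps-12 and rps-23. Of the 63 without one, 15 were bound (23.8%, 15.0 to 35.6), a difference of 14.7 percentage points with an interval of -9.23 to 42.1. The share bound of all protein-coding genes with a snoRNA gene inside was not computed, so this split has no background. A snoRNA start lay within 500 bp of the summit at 4 bound genes. It was F53G12.12, 65 bp from the summit at rpl-7, F39B2.14 at 118 bp from that of rps-26, F54E7.10 at 252 bp from that of rps-12, and Y24D9A.9 at 362 bp from that of rpl-7A.

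No tRNA gene started within 500 bp of the start of any of the 81 genes. With the peaks at tRNA and snoRNA starts left out, 16 of 76 genes were still bound (21.1%), among them rpl-3, rpl-15, rpl-35, rpl-20 and rps-23. The share of all protein-coding genes with these peaks left out was not computed.

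Several peaks were shared with another protein-coding start, in most cases that of a divergent gene. At 10 of the 20 genes another protein-coding start lay within 500 bp of the summit, and at 6 of them it was nearer than the start of the ribosomal protein gene. For rps-26 the nearer start was that of tmem-107, a ciliary gene, at 57 bp, for rps-12 that of the kinetochore gene ska-3 at 121 bp, for rps-19 that of hsr-9 at 150 bp, for rpl-20 that of Y17G9B.5 at 174 bp, and for rps-23 that of dpm-3 at 250 bp. At rpl-29 it was thoc-7, on the same strand, at 35 bp. At rpl-7A, rpl-12, rpl-30 and rpl-15 the start of the ribosomal protein gene was nearer than those of set-21, lin-54, pab-1 and K11H12.8.

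Binding in relation to a divergent partner depended on the distance allowed. With a protein-coding partner on the opposite strand within 1000 bp upstream, 11 of 45 genes were bound (24.4%, 14.2 to 38.7), and without one 9 of 31 (29.0%, 16.1 to 46.6), a difference of -4.59 percentage points (-24.9 to 14.6). With 500 bp, a distance chosen after the values were seen, 8 of 18 were bound with a partner (44.4%, 24.6 to 66.3) and 12 of 58 without (20.7%, 12.3 to 32.8), a difference of 23.8 points (0.488 to 47.2). Among all protein-coding genes the shares with and without a partner were 2.75% and 1.61% at 1000 bp, and 3.16% and 1.68% at 500 bp. Of the strongest genes, rpl-3 and rpl-35 had no such partner within 1000 bp.

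Bound genes were spread over 5 of the 6 chromosomes, with 7 of 16 on IV (43.8%), 6 of 24 on I, 4 of 17 on III, 2 of 8 on V, 1 of 9 on II and 0 of 2 on X. The interval of the difference between IV and the other chromosomes ran from -1.78 to 46.7 percentage points. The share of all protein-coding genes bound on each chromosome was not computed, so these counts have no background.

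The count also depended on the width of the window. Within 250 bp, 9 of 55 genes were bound (16.4%, 8.86 to 28.3, against 1.17% of protein-coding genes), none of them among the 6 of highest signal. Within 1000 bp, 28 of 79 were bound (35.4%, 25.8 to 46.4, against 2.62%). The 8 genes added were rpl-36, rps-30, rps-15, rpl-43, rps-27, rps-6, rps-22 and rpl-14, with signals of 60.7 to 94.5, and the peak counted for rps-30 is that of its divergent neighbour rpl-39. With gene starts from RefSeq 19 genes were bound, and rpl-29 was lost, but no background share was computed with these starts.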

How the data were processed

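Peak lists on ce11 came from chromatin immunoprecipitation in 2 biological replicates, per the labels. The deposited score is the irreproducible discovery rate score that the authors scaled to at most 1000, and the deposited signal is their peak caller's value. What aligner and caller were used is not given in the sources used here. The control library was not analysed here. A summit is the peak start plus its deposited offset. Genes came from Ensembl release 115 on WBcel235, with piRNA genes left out, and RefSeq starts served as an alternative (81 of 81 genes matched). All peak ends lay within the chromosome lengths of this assembly. Shares have Wilson and differences Newcombe 95% intervals. No test was run, since genes and peaks are not replicates. Windows reaching 50 bp to each side of summits were searched on both strands. Named genes were all bound members, the 5 unbound ones of highest score, those without a ranked summit, their neighbours at the peak, and bound members of the translation lists. Members bound in other lists or within 1000 bp, and the ubiquitin fusion genes, fall outside this rule and were added with their values known. The members and lists were chosen with earlier results of these data known. Bound calls were tested on simulated data. Python 3.11.15, NumPy 2.4.6, SciPy 1.17.1 and matplotlib 3.10.9 were used.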

Additional observations from a re-analysis of the deposited data

How the results depend on the processing

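The share of ribosomal protein genes bound moved outside its interval without replicate 1 or without replicate 2 (5.26% to 17.1%), within 250 bp (16.4%) and when peaks below the median signal were dropped (14.5%). The cause was not tested, except that the shorter lists and window hold fewer peaks and genes. With peaks below the median signal dropped, the share of all protein-coding genes was not computed, so that value has no background. For the large subunit the share moved outside its interval without replicate 1 (8.33%), within 250 bp (16.2%) and without peaks below the median signal (14.6%). Without replicate 2 it was 16.7%, just inside. For the small subunit the share was 0% without replicate 1, outside its interval, and 17.9% without replicate 2, inside it. Counting a peak only where no other protein-coding start was nearer was an alternative chosen after seeing the data. It gave 14 of 76 genes (18.4%), 11 of 48 for the large subunit (22.9%) and 3 of 28 for the small (10.7%). Only the small-subunit value lay outside its interval, and no background share was computed under this rule. The median signed distance was -330.5 bp without replicate 1, outside its interval, and -289 bp without replicate 2, inside it. It changed sign to 48.5 bp within 1000 bp. Its other alternatives (-295 to -30 bp), and all 9 for the signal percentile (median 55.8), lay inside their intervals. No paired analysis was possible because there was 1 group. Depth is unknown and limits what a missing peak shows.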
